A study of Mus musculus with 9 samples.

Results

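The marrow stromal niche genes described here are 8 genes, Lepr, Kitl, Angpt1, Vcam1, Pdgfra, Prrx1, Foxc1 and Ebf3, of the 22183 genes in a table of polyadenylated RNA from mouse tibiae. They were picked by symbol, with earlier results of these data known. All 8 were among the 14211 genes that passed the filter on low counts. The table holds 9 libraries of whole tibia, 3 in each of 3 groups. The Ti+I-OG tibiae received titanium particles together with I-OG, an injectable natural-polymer hydrogel that carries irisin, a hormone released by muscle. The Ti tibiae received titanium particles, wear debris that models the loosening of implants without infection, and the naive tibiae were untreated. The hydrogel tibiae were collected after 5 weeks of treatment. The sources used here give no time for the other groups and no strain, age or sex for any. Because naive tibiae had no procedure, an effect of the particles and one of their delivery cannot be told apart. No group received an empty hydrogel, so the same holds for irisin and its carrier. Whether the 3 samples of a group were separate animals is not stated, and the p-values therefore measure the spread among these samples alone, some of which may be technical.

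Bone marrow holds a sparse network of mesenchymal stromal cells that lie along the sinusoids, the wide vessels of the marrow. These cells carry the leptin receptor on their surface and supply the stem cell factor encoded by Kitl and the chemokine encoded by Cxcl12, on which blood stem cells and many progenitors depend. The transcription factors Foxc1 and Ebf3 are known in mouse to hold these cells in their niche-supporting state and to keep the marrow cavity open to blood formation, whereas Prrx1 and Pdgfra are shared with limb mesenchyme and fibroblasts more widely.

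In tibiae given titanium particles, 3 of the 8 niche genes rose, and none fell. These were Prrx1 (2.27-fold), Foxc1 (2.02-fold) and Kitl (1.57-fold), while the gene that names the cells, Lepr, was at 0.993-fold with libraries that overlapped. In bulk RNA of whole bone, more cells of a type and more RNA per cell cannot be told apart. The share called, 37.5%, stands beside 6.43% of all tested genes called in either direction and 4.05% called higher in the same comparison. Calls are by edgeR's quasi-likelihood test at a Benjamini-Hochberg adjusted p under 0.05. Because the genes were chosen with earlier results of these data known, these shares describe the set and do not test it. In Ti+I-OG tibiae Kitl and Foxc1 lay below every Ti library, but no niche gene passed the test against Ti or against naive. In a fit with the replicate number as a block Prrx1 passed against naive (0.58 on the log2 scale, edgeR adjusted p = 0.0182). That fit called 3450 of the 14211 tested genes in the comparison, against 1174 without the block, so the pass is not read as particular to Prrx1. All of the 3 calls were lost when naive replicate 3, Ti replicate 1 or Ti replicate 2 was left out.

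The promoters of the 3 genes that rose together, and that of Ebf3, are shown because Foxc1 and Ebf3 encode factors that bind short DNA words which can be looked for in them. RefSeq promoters on mouse build GRCm38.p6 were available for 6 of the 8 genes. Angpt1 and Vcam1 were not in that table. The lines give the 250 bases before the annotated start, 5′ to 3′ on the gene's strand, for Kitl at chr10:100015571-100015820 (plus strand), Foxc1 at chr13:31806396-31806645 (plus strand), Prrx1 at chr1:163313651-163313900 (minus strand) and Ebf3 at chr7:137314446-137314695 (minus strand). Capitals mark a match to CCCNNGGG, the core of the site bound by early B cell factors.
Kitl: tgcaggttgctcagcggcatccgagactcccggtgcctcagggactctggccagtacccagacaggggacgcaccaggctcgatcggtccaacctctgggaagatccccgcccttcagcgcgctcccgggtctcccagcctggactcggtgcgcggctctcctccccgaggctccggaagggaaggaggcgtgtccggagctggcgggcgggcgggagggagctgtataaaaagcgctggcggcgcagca
Foxc1: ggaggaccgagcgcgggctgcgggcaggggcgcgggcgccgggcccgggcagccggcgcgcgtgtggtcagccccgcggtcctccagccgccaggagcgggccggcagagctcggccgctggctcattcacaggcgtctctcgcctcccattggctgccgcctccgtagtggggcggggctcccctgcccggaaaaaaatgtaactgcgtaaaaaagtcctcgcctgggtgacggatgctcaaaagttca
Prrx1: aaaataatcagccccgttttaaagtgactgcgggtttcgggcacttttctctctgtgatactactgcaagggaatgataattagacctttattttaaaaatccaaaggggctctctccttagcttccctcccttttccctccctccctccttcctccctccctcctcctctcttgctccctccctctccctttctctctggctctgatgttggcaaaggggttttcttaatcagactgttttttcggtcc
Ebf3: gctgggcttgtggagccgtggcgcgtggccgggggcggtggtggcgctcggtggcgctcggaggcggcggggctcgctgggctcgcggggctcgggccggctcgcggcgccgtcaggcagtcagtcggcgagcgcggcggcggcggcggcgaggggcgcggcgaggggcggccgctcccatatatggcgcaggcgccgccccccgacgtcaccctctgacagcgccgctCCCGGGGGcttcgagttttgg
The core CCCNNGGG, read on both strands, was in 1 of the 6 niche genes with a promoter, 14 bases before the start of Ebf3 itself, and in 11.8% of all 32851 promoters over the same 250 bases. The forkhead core TGTTTAC, also read on both strands, was in none of the 6 and in 3.17% of all promoters. The G and C content of the 250 bases was 69.2% for Kitl, 70.8% for Foxc1, 80.0% for Ebf3 and 47.6% for Prrx1, beside a median of 52.4% over all promoters. The 3 genes that rose therefore did not share a G and C rich promoter, since that of Prrx1 lay below the median.

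Levels per transcript length were compared between genes with the deposited FPKM values, fragments divided by transcript length and by sequencing depth. Vcam1, an adhesion molecule that stromal cells, endothelium and marrow macrophages display, had the highest FPKM in every group, at 93.1 ± 5.68 in Ti+I-OG, 98.2 ± 9.0 in Ti and 106 ± 16.9 in naive (SD, n = 3 each). Lepr came second, at 15.2 ± 3.78 FPKM in Ti+I-OG, 15.6 ± 2.19 in Ti and 16.7 ± 1.87 in naive. Foxc1 came last, at 1.59 ± 0.293, 2.64 ± 0.486 and 1.38 ± 0.102 FPKM in the same order of groups. In naive tibiae Vcam1, Lepr, Angpt1 and Kitl followed one another with no overlap between neighbours, while Pdgfra, Ebf3 and Prrx1, at 3.92, 3.64 and 3.56 FPKM, could not be ordered beyond their spread. In Ti tibiae Kitl, at 11.7 to 14.5 FPKM, overlapped both Lepr (13.1 to 17.3) and Angpt1 (9.37 to 12.4). Prrx1, at 5.31 to 9.11 FPKM, had a higher mean there than Pdgfra (4.92 to 5.91) and Ebf3 (3.54 to 4.53), but it overlapped Pdgfra. In Ti+I-OG tibiae Kitl, at 7.60 to 9.59 FPKM, had a lower mean than Angpt1 (6.98 to 13.8), with overlapping libraries. The order of the mean FPKM thus differed between groups in the places of Kitl and Prrx1. In Ti both overlapped a neighbour, so no change of order beyond the spread is claimed.

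**Figure D1:**
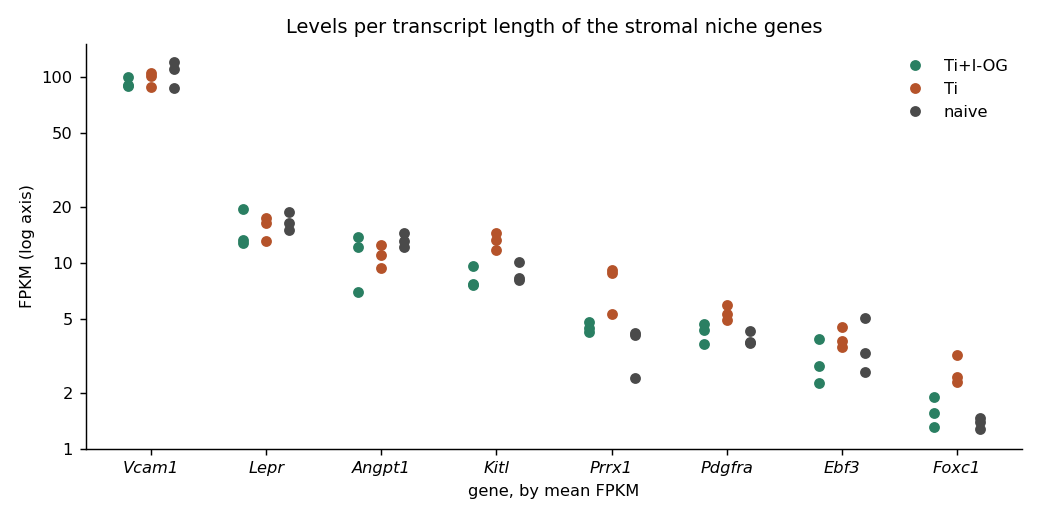
Level per transcript length of each stromal niche gene (FPKM, log axis), 1 point per library, with Ti+I-OG, Ti and naive from left to right at each gene. Vcam1 lies near 100 FPKM in all groups, Lepr between 12.8 and 19.6 FPKM, and Foxc1 is lowest, at 1.27 to 3.19 FPKM.

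The secreted and surface factors of the niche were taken first, on the scale of normalised CPM, counts scaled to the library total, which compares 1 gene across libraries. Kitl encodes stem cell factor, the ligand of the receptor Kit on blood progenitors and mast cells. It had 46.7, 46.9 and 54.7 CPM in Ti+I-OG replicates 1, 2 and 3, 77.7, 71.1 and 64.1 CPM in Ti, and 41.1, 54.0 and 40.6 CPM in naive. All Ti libraries lay above all libraries of both other groups, which overlapped each other. Against naive, Kitl rose in Ti by a log2 fold change of 0.65 (SE 0.146, 95% interval 0.33 to 0.97, adjusted p = 0.0267). Its log2 fold change between Ti+I-OG and Ti was −0.52 (SE 0.146, 95% interval −0.84 to −0.20), with an unadjusted p of 0.00405 that did not pass once adjusted over all genes (edgeR, adjusted p = 0.628). Against naive, Ti+I-OG was at 0.13 (SE 0.146, 95% interval −0.19 to 0.45, adjusted p = 0.577).

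Angpt1 encodes angiopoietin 1, the activating ligand of the endothelial receptor Tie2. It had 56.6, 33.2 and 60.2 CPM in Ti+I-OG, 52.4, 39.6 and 46.5 CPM in Ti, and 58.2, 53.9 and 47.3 CPM in naive. The groups overlapped, and Ti+I-OG replicate 2 was the lowest of the 9 libraries. The log2 fold change was −0.20 between Ti and naive (SE 0.204, 95% interval −0.65 to 0.24, adjusted p = 0.543) and 0.12 between Ti+I-OG and Ti (SE 0.204, 95% interval −0.33 to 0.56).

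Vcam1 encodes the ligand through which the integrin of Itga4 and Itgb1 anchors blood cells to stroma. It had 370, 339 and 315 CPM in Ti+I-OG, 355, 297 and 341 CPM in Ti, and 278, 394 and 340 CPM in naive. Naive replicates 1 and 2 were the lowest and the highest of all 9 libraries, so that the other groups lay within the naive range. The log2 fold change was −0.03 between Ti and naive (95% interval −0.37 to 0.31, adjusted p = 0.923) and 0.04 between Ti+I-OG and Ti (95% interval −0.29 to 0.38, adjusted p = 0.951). These small estimates changed sign with the scaling or with a library left out.

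The receptors came next. Lepr, the leptin receptor, had 79.8, 78.6 and 110 CPM in Ti+I-OG, 94.7, 71.8 and 89.0 CPM in Ti, and 96.2, 79.6 and 81.4 CPM in naive. Every group spanned much the same range, with Ti+I-OG replicate 3 the highest library and Ti replicate 2 the lowest. The log2 fold change was −0.01 between Ti and naive (SE 0.164, 95% interval −0.37 to 0.35, adjusted p = 0.976), 0.07 between Ti+I-OG and Ti (95% interval −0.29 to 0.43, adjusted p = 0.925) and 0.06 between Ti+I-OG and naive (95% interval −0.30 to 0.42, adjusted p = 0.821). The first of these intervals lies below the estimates for Kitl, Prrx1 and Foxc1 in the same comparison. It overlaps the interval of Kitl (0.33 to 0.97) but not those of Prrx1 and Foxc1, and no difference between genes was tested.

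Pdgfra, the α receptor for platelet-derived growth factors and a marker of mesenchymal progenitors and fibroblasts, had 32.7, 25.6 and 29.0 CPM in Ti+I-OG, 33.8, 37.9 and 31.6 CPM in Ti, and 22.6, 27.0 and 22.3 CPM in naive. All Ti libraries lay above all naive libraries, while Ti+I-OG overlapped both. Its log2 fold change between Ti and naive was 0.52 (SE 0.146, 95% interval 0.21 to 0.84), which narrowly missed the threshold in edgeR's test (adjusted p = 0.0537). It passed with DESeq2 (adjusted p = 0.0196) and with the trend of counts on transcript length removed (adjusted p = 0.0343). The log2 fold change between Ti+I-OG and Ti was −0.24 (SE 0.146, adjusted p = 0.673).

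Among the transcription factors Prrx1, a homeobox gene of limb and skeletal mesenchyme, had 25.0, 27.2 and 22.0 CPM in Ti+I-OG, 44.4, 45.9 and 26.6 CPM in Ti, and 20.2, 20.2 and 11.1 CPM in naive. Ti replicate 3 lay far below the other Ti libraries and within the Ti+I-OG range, and naive replicate 3 was the lowest of all 9. Prrx1 rose in Ti against naive by a log2 fold change of 1.19 (SE 0.252, 95% interval 0.63 to 1.74, adjusted p = 0.0236). It was at −0.66 between Ti+I-OG and Ti (SE 0.250, unadjusted p = 0.0227, adjusted p = 0.628 by edgeR) and at 0.53 between Ti+I-OG and naive (SE 0.252, adjusted p = 0.184), where the fit with the replicate number as a block gave 0.58 and a pass (adjusted p = 0.0182). The blocked fit called 3450 of all tested genes in that comparison, against 1174 without the block. All Ti+I-OG libraries of Prrx1 lay above naive. Without naive replicate 3 the rise of Prrx1 in Ti was 0.93 and no longer passed (adjusted p = 0.0630).

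Foxc1, the forkhead factor, had 12.1, 8.52 and 9.35 CPM in Ti+I-OG, 14.2, 18.5 and 13.1 CPM in Ti, and 8.09, 7.85 and 6.79 CPM in naive. The 3 groups did not overlap at all: every Ti library lay above every Ti+I-OG library, and every Ti+I-OG library above every naive library. Foxc1 rose in Ti against naive by a log2 fold change of 1.01 (SE 0.196, 95% interval 0.58 to 1.44, adjusted p = 0.0173). It was at −0.61 between Ti+I-OG and Ti (SE 0.195, 95% interval −1.04 to −0.18, unadjusted p = 0.00889, adjusted p = 0.628 by edgeR) and at 0.40 between Ti+I-OG and naive (SE 0.197, 95% interval −0.03 to 0.83, adjusted p = 0.196).

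Ebf3, of the early B cell factor family, had 14.7, 12.3 and 19.4 CPM in Ti+I-OG, 21.4, 18.2 and 17.1 CPM in Ti, and 14.9, 21.1 and 10.9 CPM in naive. The naive libraries spanned almost the whole range of the other groups. The log2 fold change was 0.27 between Ti and naive (SE 0.239, 95% interval −0.25 to 0.80, adjusted p = 0.480), so that a rise like that of Kitl lay inside the interval, and −0.29 between Ti+I-OG and Ti (SE 0.240, adjusted p = 0.765). The 3 transcription factors thus did not move alike by this test: 2 rose and Ebf3 did not pass, and the difference between them was not tested.

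**Figure D2:**
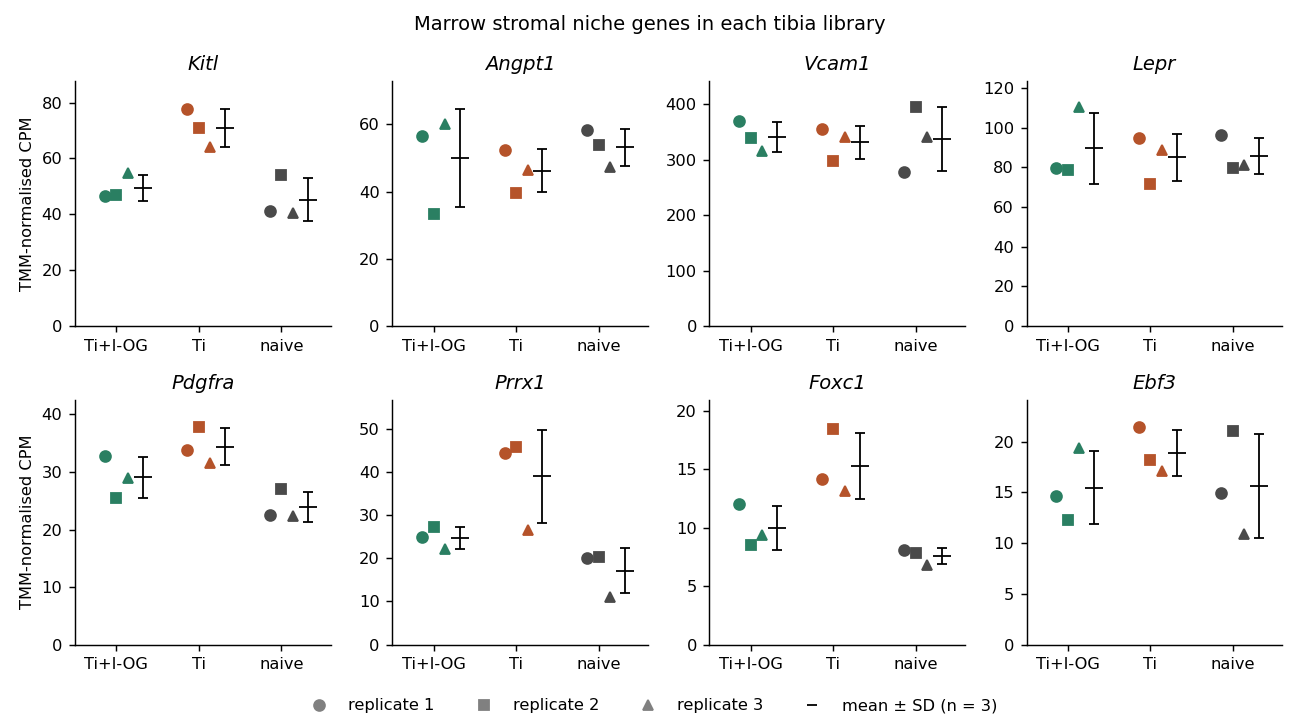
Normalised CPM of each niche gene in every library, with Ti+I-OG, Ti and naive from left to right, replicates marked by shape, and the mean ± SD (n = 3) at the right of each group. The Ti points of Kitl, Pdgfra, Prrx1 and Foxc1 lie above all naive points, while Lepr, Angpt1, Vcam1 and Ebf3 overlap.

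Over the 8 genes the median log2 fold change between Ti and naive was 0.40, beside 0.01 over all tested genes. The Ti libraries of 4 genes, Kitl, Pdgfra, Prrx1 and Foxc1, lay wholly above naive, as did those of 14.3% of all tested genes. For Ti+I-OG against Ti the median was −0.27, beside −0.003 over all genes, and edgeR called 0 of the 8. In that comparison 6 of the 14211 tested genes were called, which is 0.0422%, and 3 niche genes had an unadjusted p under 0.05. DESeq2, limma-voom and limma-trend on FPKM also called 0. Across all tested genes the log2 fold change was lower for longer transcripts, with a Spearman's rho of −0.325 between fold change and length in this comparison, −0.240 between Ti and naive and −0.401 between Ti+I-OG and naive, over genes that are not independent replicates. With that trend removed from each library the median over the 8 genes was −0.15 between Ti+I-OG and Ti, 0.43 between Ti and naive and 0.24 between Ti+I-OG and naive. Pdgfra was then at −0.11 between Ti+I-OG and Ti. The median between Ti+I-OG and Ti was −0.16 without Ti+I-OG replicate 2, and that between Ti and naive was 0.25 without naive replicate 3. Kitl and Foxc1 lay wholly below Ti, as did 6.71% of all genes. For Ti+I-OG against naive the median was 0.10, beside 0.03, and edgeR called 0 of the 8 niche genes, beside 8.26% of all genes. None had an unadjusted p under 0.05 there, and DESeq2, limma-voom and limma-trend on FPKM called 0. With the replicate number as a block 1 of the 8, Prrx1, was called, and the calls over all genes were 3450 against 1174 without it. The median over the 8 genes in that comparison was −0.09 on library sizes without globin and mitochondrial genes and between 0.02 and 0.27 with a library left out, so its sign depended on the scaling and its size on single libraries. Prrx1 and Foxc1 lay wholly above naive, as did 18.7% of all genes. The comparisons share libraries, so these values are not independent of one another.

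**Figure D3:**
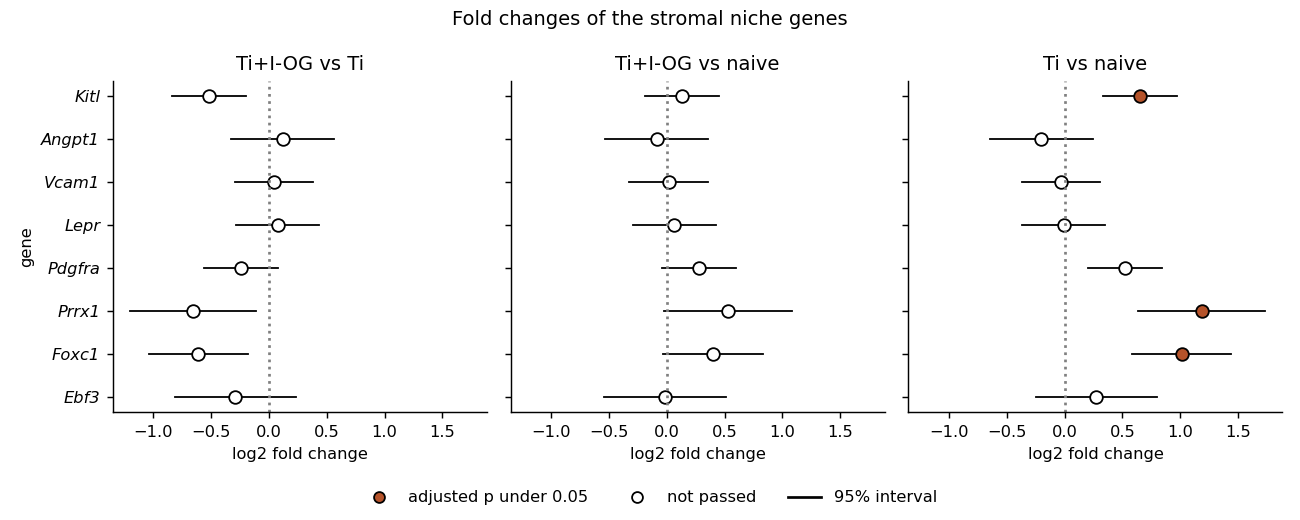
Log2 fold change of each niche gene in the 3 comparisons with its 95% interval, filled where the adjusted p was under 0.05. Kitl, Prrx1 and Foxc1 are filled between Ti and naive, at 0.65, 1.19 and 1.01, and no gene is filled in the other comparisons.

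The calls between Ti and naive rested on few libraries. Kitl passed in 2 of the 6 fits that left out 1 library of these groups, Prrx1 in 3, Foxc1 in 3 and Pdgfra in 2. The number of niche genes called was 0 without naive replicate 3, without Ti replicate 1 and without Ti replicate 2, where Foxc1 had adjusted p of 0.0628, 0.0687 and 0.0860, Prrx1 of 0.0630, 0.105 and 0.105, and Kitl of 0.109, 0.115 and 0.106. Kitl was also not called without naive replicate 1 (adjusted p = 0.0887). The log2 fold changes kept their sign in these fits, at 0.56 to 0.80 for Kitl, 0.93 to 1.40 for Prrx1 and 0.84 to 1.11 for Foxc1. The calls over all tested genes were also fewer, at 213, 100 and 105 without those 3 libraries, against 914 with all.

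Some of the niche genes varied together and others did not. Across the 9 libraries Pearson's r of log2 CPM was 0.94 between Pdgfra and Foxc1, 0.88 between Prrx1 and Foxc1 and 0.82 to 0.84 between Kitl and each of Pdgfra, Prrx1 and Foxc1. With the group means removed, r was 0.82 between Pdgfra and Foxc1, 0.53 between Prrx1 and Foxc1 and 0.10 between Kitl and Foxc1, whereas it was 0.89 between Kitl and Ebf3. Lepr was near no correlation with Kitl (r = 0.01) and at 0.64 with Angpt1, which was 0.68 with group means removed. These values describe 9 libraries that share groups and normalisation.

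**Figure D4:**
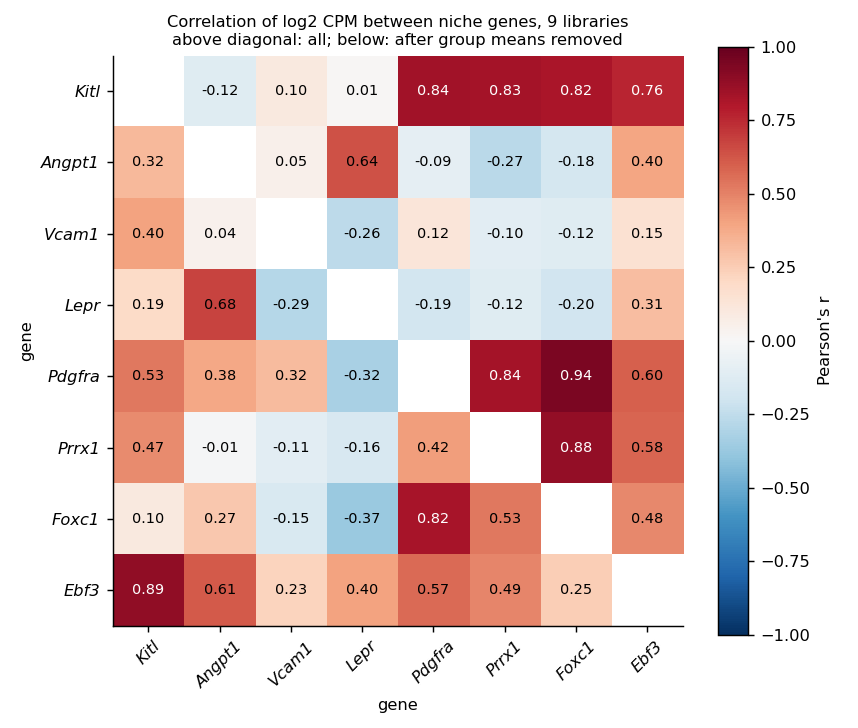
Pearson's r of log2 CPM between each pair of niche genes over 9 libraries, above the diagonal as measured and below it with group means removed. Kitl, Pdgfra, Prrx1 and Foxc1 form a block at 0.82 to 0.94 above the diagonal, apart from Lepr, Angpt1 and Vcam1.

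The ratio to Lepr in the same library was compared across libraries, on CPM and not per length. Kitl had 0.559 ± 0.0555 normalised counts per count of Lepr in Ti+I-OG, 0.843 ± 0.136 in Ti and 0.535 ± 0.129 in naive (SD, n = 3 each). The Ti ratios, at 0.720 to 0.989, did not overlap those of naive, at 0.427 to 0.678. For Prrx1 the ratio was 0.286 ± 0.0768 in Ti+I-OG, 0.469 ± 0.170 in Ti and 0.200 ± 0.0591 in naive, and for Foxc1 it was 0.115 ± 0.0336, 0.185 ± 0.0627 and 0.0887 ± 0.00854. Vcam1 had a ratio of 3.93 ± 0.951 in Ti+I-OG, 3.91 ± 0.199 in Ti and 4.01 ± 1.04 in naive. The ratios of Kitl, Prrx1 and Foxc1 to Lepr were thus higher in all Ti libraries than in all naive libraries. So was that of Pdgfra, at 0.355 to 0.528 in Ti and 0.235 to 0.339 in naive. The ratio of Angpt1 was lower in all Ti libraries, at 0.522 to 0.554 against 0.581 to 0.678, and those of Vcam1 and Ebf3 overlapped. These are descriptions that were not tested, and the share of all genes that separate in this way was not counted.

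In the deposited annotation Prrx1, Foxc1 and Ebf3 carry a transcription factor family (homeobox, forkhead and COE). Kitl, Angpt1 and Pdgfra share the KEGG pathways of PI3K-Akt and Ras signalling, in which they stand as ligands and a receptor of tyrosine kinase signalling. Of these 3 pathway members Kitl rose in Ti, and Angpt1 and Pdgfra did not pass.

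Other genes of the stromal niche followed in a list of 20, of which 19 were tested. Between Ti and naive 5 of them rose and none fell, beside 4.05% of all tested genes called higher. Of the 19, 18 had a positive log2 fold change, beside 50.7% of all tested genes, and the median was 0.57. Cspg4, the pericyte proteoglycan NG2, averaged 7.26 ± 2.25 CPM in Ti+I-OG, 10.8 ± 4.41 in Ti and 3.28 ± 0.775 in naive (SD, n = 3 each), and its log2 fold change in Ti against naive was 1.72 (adjusted p = 0.0167). Bmp4, a bone morphogenetic protein, rose by 1.24 (adjusted p = 0.0314), Gas6, a ligand of TAM receptors, by 0.77 (adjusted p = 0.0447) and Igfbp4, a binding protein of insulin-like growth factors, by 0.51 (adjusted p = 0.0447). Prrx2, the paralogue of Prrx1 and named here after its values were seen, rose by 2.21 (adjusted p = 0.0447), at 2.03 ± 0.512 CPM in Ti+I-OG, 2.11 ± 1.52 in Ti and 0.460 ± 0.194 in naive. These calls too were sensitive to single libraries, since Cspg4 passed in 3 of the 6 fits with a library left out, Bmp4 and Prrx2 in 2, and Gas6 and Igfbp4 in 1. None of the 5 passed without naive replicate 1, naive replicate 3 or Ti replicate 2, where adjusted p ran from 0.0512 to 0.222.

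Cxcl12, the chemokine that retains blood stem cells in marrow and the niche factor made alongside Kitl, was also named after its values were seen. It averaged 1310 ± 99.0 CPM in Ti+I-OG, 1387 ± 81.6 in Ti and 1154 ± 385 in naive, and its log2 fold change between Ti and naive was 0.26 (SE 0.221, adjusted p = 0.461). None of the 19 genes was called between Ti+I-OG and Ti, 1 had an unadjusted p under 0.05, and the median was −0.17. Cxcl12 was at −0.08 (adjusted p = 0.936) and Igfbp4 at −0.25 (adjusted p = 0.658), with all Ti+I-OG libraries of Igfbp4 below Ti. Against naive, 2 of the 19 rose in Ti+I-OG, beside 8.26% of all tested genes called, and the median was 0.26. These were Bmp4, by 1.41 (adjusted p = 0.0247), and Prrx2, by 2.14 (adjusted p = 0.0469). Each passed in 1 of the 6 fits that left out a library.

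The binding partners of the niche proteins were followed in 17 genes. Between Ti and naive 2 rose and 1 fell, beside 6.43% of all tested genes called, with a median of 0.14. With the replicate number as a block 3 rose and 4 fell, in a fit that called 2968 of all tested genes against 914 without the block. The platelet-derived growth factor genes Pdgfc and Pdgfa, whose products bind the receptor of Pdgfra, rose by 1.01 (adjusted p = 0.0388) and 0.89 (adjusted p = 0.0447). Pdgfa averaged 10.5 ± 1.04 CPM in Ti+I-OG, 9.97 ± 1.91 in Ti and 5.38 ± 1.44 in naive. Socs3, a feedback inhibitor of leptin receptor and cytokine signalling, fell by 1.00 on the log2 scale (adjusted p = 0.0274), to 14.4 ± 1.52 CPM in Ti, against 28.8 ± 7.55 in naive. The adjusted p of all 3 exceeded 0.05 without naive replicate 1 (0.0679 to 0.0878), without naive replicate 3 (0.0749 to 0.142), without Ti replicate 1 (0.0907 to 0.133) and without Ti replicate 2 (0.0927 to 0.200).

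The receptors of the niche factors did not pass between Ti and naive, and they are named here after their values were seen. Kit, the receptor for stem cell factor, averaged 40.1 ± 11.4 CPM in Ti+I-OG, 39.2 ± 13.9 in Ti and 56.0 ± 19.7 in naive, with a log2 fold change of −0.52 in Ti against naive (SE 0.299, adjusted p = 0.287). Kitl thus rose in Ti while its receptor gene had a negative estimate that did not pass in the main fit. Tek, which encodes Tie2, was at 0.17 (adjusted p = 0.573) and Itga4, the α4 integrin chain that binds Vcam1, at −0.46 (adjusted p = 0.129). Kit and Itga4 kept a negative estimate throughout, and each passed in 1 of 17 alternative settings. Lep, the ligand of the leptin receptor, was at 2.39 (SE 0.915, adjusted p = 0.128), with 3.31 ± 2.31 CPM in Ti and 0.640 ± 0.459 in naive. In Ti+I-OG against Ti none of the 17 was called (1 with an unadjusted p under 0.05). Itgb1, the β1 integrin chain, was at −0.20 (adjusted p = 0.714) and Stat3, a transcription factor downstream of the leptin receptor, at −0.11 (adjusted p = 0.901). In Ti+I-OG against naive Pdgfa rose by 0.96 (adjusted p = 0.0348), while Socs3 fell by 0.84 (adjusted p = 0.0455) and Stat3 by 0.70 (adjusted p = 0.0475) on the log2 scale, each passing in 1 of the 6 fits that left out a library.

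Genes of blood stem and progenitor cells, the cells that the niche serves, were followed in a list of 12. Between Ti and naive 3 rose and none fell, beside 4.05% of all tested genes called higher. The median was −0.22, so that the median and the calls differed in sign. With the replicate number as a block 3 rose and 4 fell, in a fit that called 2968 of all tested genes against 914 without the block. Mecom, a transcription factor of stem cells that other tissues also express, rose by 1.72 (adjusted p = 0.0173), Procr, the protein C receptor of stem cells and endothelium, by 1.42 (adjusted p = 0.0346), and Ly6a, the Sca-1 antigen of stem cells, endothelium and mesenchyme, by 0.91 (adjusted p = 0.0281). All 3 occur outside blood cells as well. Mecom averaged 2.02 ± 0.228 CPM in Ti+I-OG, 3.55 ± 1.29 in Ti and 1.08 ± 0.117 in naive. The adjusted p of these 3 genes was above 0.05 in the 4 fits without naive replicate 1, naive replicate 3, Ti replicate 1 or Ti replicate 2. No gene of the 12 was called in Ti+I-OG against Ti or against naive (2 and 3 with an unadjusted p under 0.05), with Cd48, a surface marker of committed progenitors, at 0.03 and 0.20 and Ly6a at −0.18 and 0.73.

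Markers of some other cell types also rose in Ti, by the share of genes called chiefly those of tendon, cartilage, bone and smooth muscle. Between Ti and naive 11 of 14 tendon and fibrous tissue genes rose (median 2.43), as did 5 of 10 osteoblast genes (1.16), 4 of 8 chondrocyte genes (1.93), 4 of 11 smooth muscle and pericyte genes (1.13), 2 of 10 adipocyte genes (1.50), 1 of 10 skeletal muscle genes (1.23) and 1 of 15 endothelial genes (0.21). Of 10 macrophage genes 1 rose and 2 fell (0.24), and none of 10 erythroid genes was called (0.30). Over all tested genes 6.43% were called and 4.05% were called higher, so nothing is read from the single skeletal muscle, endothelial and macrophage genes that rose. All 10 adipocyte and all 10 skeletal muscle genes had a positive estimate, beside 50.7% of all tested genes. In edgeR's test 9 and 8 of these had an unadjusted p under 0.05. The tendon genes Tnmd (log2 fold change 3.99) and Thbs4 (2.94), the osteoblast genes Ibsp (1.20) and Alpl (1.12), and the smooth muscle gene Acta2 (1.37) were among those that rose. Without a library Tnmd and Thbs4 passed in all 6 fits, whereas leaving out Ti replicate 1 or 2 ended the calls of Ibsp and Alpl (adjusted p = 0.0650 to 0.0779), and leaving out these or naive replicate 3 that of Acta2 (0.0568 to 0.0750). Prrx1, Pdgfra and Foxc1 are also expressed in tendon, cartilage and bone-forming cells, and the part of these cells in the rise of the niche genes was not tested.

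The summed share of counts separated Ti from naive for tendon, osteoblast, chondrocyte, smooth muscle and adipocyte genes, but not for skeletal muscle, endothelial, macrophage and erythroid genes. Tendon and fibrous tissue genes took 0.133 to 0.208% of counts in Ti+I-OG, 0.192 to 0.349% in Ti and 0.0761 to 0.106% in naive libraries. Osteoblast genes took 0.554 to 0.711%, 0.852 to 1.05% and 0.220 to 0.484%, and chondrocyte genes 0.0261 to 0.0671%, 0.106 to 0.127% and 0.0212 to 0.0533%, in the same order of groups. Smooth muscle and pericyte genes took 0.0338 to 0.0388%, 0.0316 to 0.0697% and 0.0194 to 0.0311%, and adipocyte genes 0.0606 to 0.138%, 0.0633 to 0.132% and 0.0317 to 0.0562%, so that Ti and Ti+I-OG overlapped. Skeletal muscle genes took 0.282 to 0.470% in Ti+I-OG, 0.202 to 0.693% in Ti and 0.0895 to 0.263% in naive, and Ti overlapped naive. Endothelial genes, at 0.0406 to 0.0617%, 0.0492 to 0.0538% and 0.0449 to 0.0599%, and macrophage genes, at 0.0824 to 0.0894%, 0.0758 to 0.0883% and 0.0681 to 0.0772%, also overlapped between Ti and naive. No marker of any list was without counts. The 8 niche genes together took 0.0512 to 0.0605% of counts in Ti+I-OG, 0.0605 to 0.0700% in Ti and 0.0574 to 0.0683% in naive, a sum in which Vcam1 weighs most. Naive replicate 3 stood apart in several measures. It was the lowest of all 9 libraries for 5 of the 8 niche genes, Kitl (40.6 CPM), Pdgfra (22.3), Prrx1 (11.1), Foxc1 (6.79) and Ebf3 (10.9), and in the mean z-score over the 8 genes, at −0.99. It also had the lowest share of globin counts, 2.95%, and the lowest mean log2 level of the osteoblast list relative to all libraries, −1.62, against −0.30 and −0.23 in the other naive libraries. Without it 0 of the 8 niche genes passed between Ti and naive.

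No gene of these cell type lists was called between Ti+I-OG and Ti. The median log2 fold change was −1.25 over the chondrocyte genes and −0.51 over the osteoblast genes, each with 0 genes above zero, and 0.72 over the erythroid genes, of which 10 of 10 were positive. The erythroid genes took 15.7 to 16.6% of counts in Ti+I-OG, 7.16 to 10.5% in Ti and 3.32 to 10.1% in naive. Against naive, where 8.26% of all genes were called, 8 of 14 tendon genes rose in Ti+I-OG (median 1.95), 4 adipocyte genes (1.50), 5 erythroid genes (0.93), 2 skeletal muscle genes (1.33) and 1 each of the smooth muscle (0.88), chondrocyte (0.64), endothelial (0.25) and macrophage genes (0.32), while no osteoblast gene was called (0.79) and no niche gene was. Tnmd, Thbs4 and the fibrous tissue genes Clec3b and Col3a1 passed in all 6 fits with a library of these groups left out. The cartilage matrix gene Comp, the adipokine gene Cfd and the globin gene Hbb-bt passed in 2 of the 6, in each case without naive replicate 2 and without 1 other library. Acta2, Egfl7, Cd68, Lpl, Fabp4, Cidec, Mylpf, Mb, Hba-a1, Hba-a2 and Hbb-bs passed in 1 of the 6, the fit without naive replicate 2. With the replicate number as a block 3450 of the 14211 tested genes were called, against 1174 without it. The larger counts in the lists by that fit are therefore not read as changes of the lists. In it 4 osteoblast, 11 tendon, 7 skeletal muscle, 7 erythroid, 6 adipocyte, 4 macrophage, 3 endothelial and 2 chondrocyte genes rose. Of the smooth muscle genes 5 rose and 1 fell. The block likewise gave 5 of the 19 other stromal genes, 4 higher and 4 lower of the 17 binding partners, and 2 higher and 1 lower of the 12 stem and progenitor genes, Ly6a among them (0.75, edgeR adjusted p = 0.0032).

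**Figure D5:**
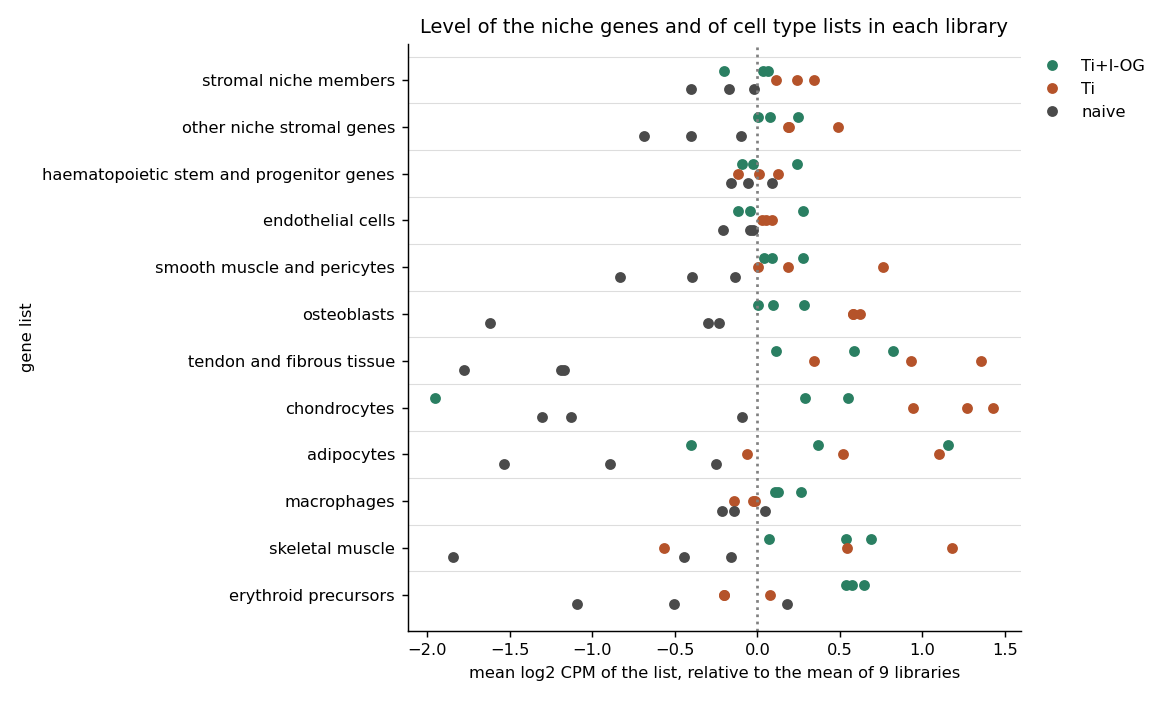
Mean log2 CPM of each gene list in every library, relative to the mean over 9 libraries, with Ti+I-OG above Ti above naive in each row. The niche genes span −0.40 to 0.34, with all Ti libraries above the rest, whereas tendon and fibrous tissue genes span −1.78 to 1.36.

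Among tested genes outside all lists, those whose log2 CPM followed the mean z-score of the 8 niche genes most closely over the 9 libraries were Cyp26b1 (Pearson's r = 0.94, Spearman's rho = 0.90), Atp1b1 (0.94 and 0.83), Hpgds (0.92 and 0.95), Pappa (0.91 and 0.73), Slc2a10 (0.91 and 0.88) and Hoxc5 (0.90 and 0.72). Cyp26b1 encodes an enzyme that degrades retinoic acid and Pappa a protease that cleaves binding proteins of insulin-like growth factors. Those that followed Lepr alone were Slc7a4 (r = 0.93), Zpbp (0.91), Slc25a35 (0.90) and Cavin2 (0.88), a caveola protein. No gene was named for both patterns. Several were low, with a mean FPKM of 0.246 for Cyp26b1, 0.496 for Slc2a10, 0.146 for Hoxc5, 0.452 for Slc7a4 and 0.290 for Zpbp. The other named genes had 1.00 (Pappa) to 31.5 (Cavin2). These are the highest values among all tested genes outside the lists, they come from 9 libraries with shared groups, and they carry no p.

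Exons of Lepr, Kitl, Prrx1 and Foxc1 overlap no other gene in GENCODE mouse release 21, and those of Angpt1, Vcam1, Pdgfra and Ebf3 overlap only predicted, antisense or microRNA genes that are not among the counted ones. The library kit does not mark strand, so values are uncertain for genes whose exons overlap those of a counted gene. Among the genes named here these are Bmp4, Gas6, Stat3, Itga4, Egfl7, Mb, Atp1b1, Hoxc5, Slc7a4, Zpbp and Slc25a35. Values are also uncertain for Ly6a, which has near-identical relatives. Total counts per library ran from 16256081 to 24766502, at which 3 counts correspond to 0.121 to 0.185 CPM, far below every value of the 8 niche genes.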

How the data were processed

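Polyadenylated RNA of mouse tibiae was sequenced, per the labels' protocols. Tools in the submitters' processing notes are RSEM, StringTie 1.3.1, fastp, edgeR and DESeq2, with no roles given. Aligner and genome build are not given in the sources used. The authors deposited estimated counts, which were rounded to whole numbers here, and FPKM, used for levels per transcript length and as an alternative. Columns were tied to samples by name. Of 22183 genes, filterByExpr left out 7972 and kept 14211. All 9 libraries entered a single fit (edgeR 4.0.16, R 4.3.3) with TMM normalisation and the quasi-likelihood test, Benjamini-Hochberg adjustment over all tested genes and 95% intervals from the fit's total degrees of freedom. CPM are on TMM-scaled library sizes. The script was tested on simulated data. Intervals cover the spread between libraries, and the floor of 3 counts covers counting error only. No replicate was a copy of another (chi-square of counts over its degrees of freedom 13.1 to 136), and all were kept. Alternatives used other scalings, filters, DESeq2 1.42.0, limma 3.58.1, a replicate block and fits with a library left out. Replicate numbers are not said to mark a shared batch. Deviations from group means of same-numbered libraries correlated at 0.197, 0.115 and 0.273 between Ti+I-OG and naive, all over 0.1. They correlated at 0.0739, 0.203 and 0.220 between Ti+I-OG and Ti and at −0.0238, 0.333 and 0.239 between Ti and naive. The numbers were taken to pair the samples between Ti+I-OG and naive alone, and the blocked value is given beside calls it changes. That choice rests on these same data and not on the labels. Every best match between Ti+I-OG and Ti also had the same number, as between Ti+I-OG and naive. The limit to Ti+I-OG and naive thus rests on the cut at 0.1 alone, and whether the numbers pair samples was not tested. The block entered a fit of all 9 libraries, Ti included. The 8 genes and the lists were chosen with earlier results of these data known. Named in each list were up to 4 called genes with the smallest p or, where none was called, the 2 with the highest mean FPKM; not all of them are printed, and others are said to be named after their values were seen.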

Additional observations from a re-analysis of the deposited data

How the results depend on the processing

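With all 9 libraries, DESeq2 size factors, another filter or none, limma-voom and library sizes without globin and mitochondrial genes gave 3 niche genes called between Ti and naive, DESeq2 and the fit with the length trend removed gave 4, and limma-trend on log2(FPKM + 1) gave 2. It was 1 on log2(FPKM + 0.1), which kept Prrx1, and 1 when only the 2 groups were fitted, which kept Foxc1. Leaving out 1 library gave 0 to 4. The cause of these changes was not tested. No niche gene was called between Ti+I-OG and Ti under any alternative. Over all genes DESeq2 called 1859 between Ti and naive, 16 between Ti+I-OG and Ti and 2440 between Ti+I-OG and naive, limma-trend called 552 or 524 between Ti and naive (pseudocounts 1 and 0.1), a fit of the 2 groups alone called 357, and without globin and mitochondrial genes 3 and 2405 were called in the comparisons with Ti+I-OG. Between Ti+I-OG and naive, where 1174 were called, it was 424 with the length trend removed, 1977 and 1957 with limma-trend, and 770 with the 2 groups alone.

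The replicate numbers were taken to pair the samples between Ti+I-OG and naive, where the blocked fit changed the calls of Prrx1 and Ly6a among the genes tested one by one, but not in the other comparisons. With the replicate number as a block 4 niche genes were called between Ti and naive, Pdgfra in addition (adjusted p = 0.0209), 0 between Ti+I-OG and Ti, and 1 between Ti+I-OG and naive, Prrx1 (0.58, adjusted p = 0.0182). The block gave 2968, 9 and 3450 calls over all genes, and 16 of 18 best matches between groups had the same number. Those with another number were between naive and Ti, while all between Ti+I-OG and Ti had the same number.

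Signs turned only for small log2 fold changes that did not pass. Between Ti and naive Lepr was at 0.017 with the length trend removed, and without a library at −0.10 to 0.090, Vcam1 at −0.15 to 0.10. Between Ti+I-OG and Ti, library sizes without globin and mitochondrial genes gave −0.038 for Lepr, −0.078 for Vcam1 and −0.10 for Cd48, where they moved the median of all genes by −0.118 (−0.197 between Ti+I-OG and naive). On log2(FPKM + 1) and log2(FPKM + 0.1) Lepr was at −0.049 and −0.052, Angpt1 at −0.036 and −0.043, Vcam1 at −0.074 and −0.075 and Cd48 at −0.10 and −0.10. Cd48 was at −0.10 with the length trend removed. Without a library Lepr ran from −0.11 to 0.16, Vcam1 from −0.029 to 0.095, Angpt1 from −0.043 to 0.34, Ly6a from −0.29 to 0.042, Stat3 from −0.20 to 0.023 and Cd48 from −0.090 to 0.18. Between Ti+I-OG and naive, Vcam1 was at −0.0018 with DESeq2 size factors, −0.0017 with DESeq2, −0.18 without globin and mitochondrial genes, and −0.17 and −0.17 on the FPKM scales. In the last 3 of these settings Lepr was at −0.12, −0.14 and −0.15 and Kitl at −0.059, −0.076 and −0.084. Cd48 was at −0.00019 without globin and mitochondrial genes and −0.15 with the length trend removed. Ebf3 was at 0.081 with the length trend removed, 0.025 with limma-voom and 0.0077 with the block. Without a library Vcam1 ran from −0.11 to 0.14, Ebf3 from −0.24 to 0.26, Angpt1 from −0.26 to 0.12, Lepr from −0.13 to 0.15 and Cd48 from −0.0042 to 0.36.

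As TMM-normalised CPM per kilobase, Ti+I-OG libraries averaged 100.3 for Vcam1 and 4.86 for Prrx1, against 93.1 and 4.50 in FPKM. The longer motif TCCCNNGGGA was in 0 of the 6 promoters and in 0.779% of all.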
